A study of Homo sapiens with 3 samples.

Results

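The HOX genes described here were taken as the transcript clusters (array features that each summarise the probes of a gene) listed with a symbol HOXA, HOXB, HOXC or HOXD plus a number, antisense genes left out. Of 39 human HOX genes in RefSeq, 22 had a transcript cluster of their own, out of 14410 genes named on the array: 1 HOXA, 8 HOXB, 6 HOXC and 7 HOXD genes. Each of the 22 had a single cluster of its own. Another 5 clusters listed a HOX symbol together with other genes and are given separately, because their signal cannot be assigned to a gene. They hold 7 further HOX genes, and the other 10 genes, all of HOXA, were not analysed here.

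Exon arrays read the total RNA of 3 established human cell lines, 1 array for each. The colon adenocarcinoma line HT-29, grown in McCoy's 5A medium with fetal serum, had received interferon gamma (IFN-γ), a cytokine, at 200 U/ml for 24 h, and "HT-29" below always means that treated culture. The mammary epithelial line MCF10A, which does not form tumours, grew in DMEM/F12 to which horse serum, EGF, insulin, hydrocortisone and cholera toxin had been added. The breast adenocarcinoma line MDA-MB-436 grew in L-15 with fetal serum and without CO2. An untreated HT-29 culture was not analysed here, so line, medium and cytokine cannot be told apart in any difference from HT-29. A single array per line leaves the spread between replicates unknown, so no test or standard error could be given and every difference describes these 3 arrays.

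HOX genes encode transcription factors with a homeodomain, a DNA-binding fold. In mammals they lie in 4 clusters, and genes at the same place in different clusters form 13 paralog groups. The order of genes along a cluster follows the order of the body regions in which they are active in the embryo, from low numbers in the hindbrain and neck to high numbers in the tail, distal limb and hindgut. Adult epithelia keep part of such a code, and HOX proteins bind DNA with partner proteins of the PBX and MEIS families.

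Olfactory receptor genes, most of them active in the nose alone, gave the background: the 95th percentile of the intensities of 228 such genes was 29.9 and their highest value 100.8. Of the 22 HOX genes, 11 exceeded 29.9 in HT-29, 10 did so in MCF10A and 11 did so in MDA-MB-436, against 66.6%, 65.0% and 68.8% of all named genes. Above 100.8 lay 5, 3 and 1 HOX genes, against 46.9%, 46.9% and 47.2% of all genes. Above background on at least 1 array were 15 of the 22 HOX genes and 10709 of the 14410 named genes. The other 7 HOX genes were under background on all 3 arrays. Intensity is a linear array unit that also depends on the probes, so a gene was compared between arrays and not with another gene.

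**Figure D1:**
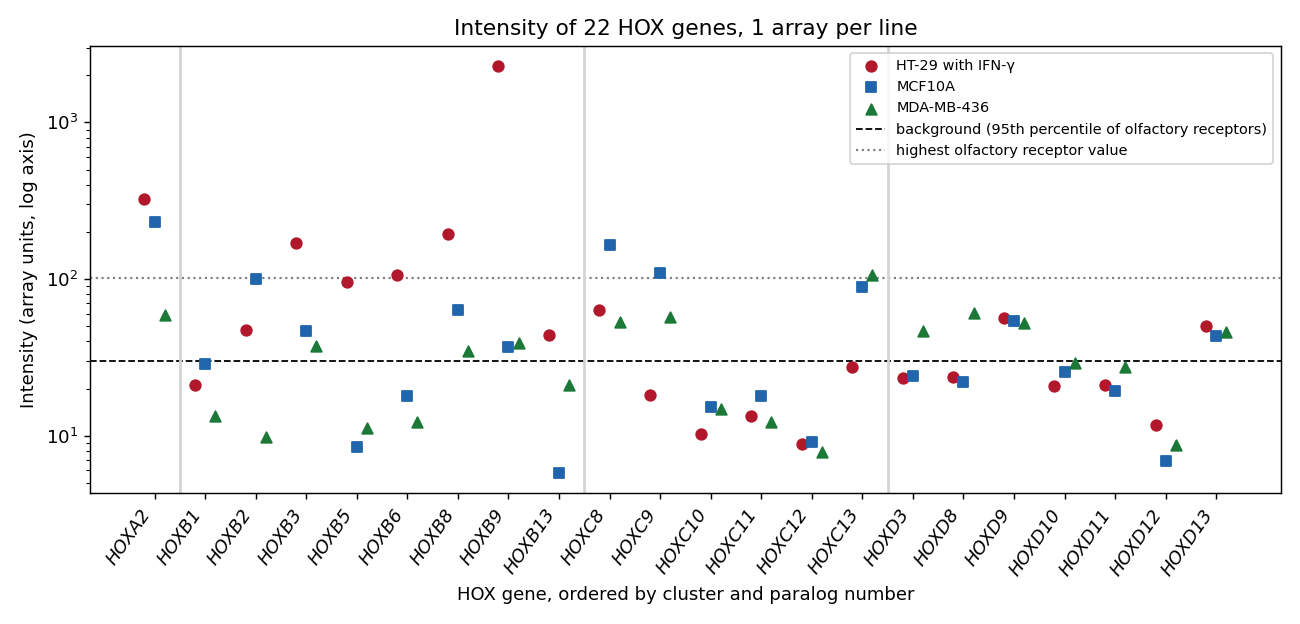
Intensity of the 22 HOX genes on a log axis in array units, with 1 point per cell line, ordered by cluster and paralog number. The dashed line marks background at 29.9 and the dotted line the highest olfactory receptor value of 100.8, and HOXB9 is at 2283 in HT-29 and close to background in the mammary lines.

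The labels were checked against marker genes. Of 11 colon epithelium markers, 10 were above background in HT-29, including the galectin gene LGALS4 at 2372, while CDH17, which encodes a cadherin of the gut, was under it at 21.3. The MCF10A array also had 5 of these markers above background, and the MDA-MB-436 array had 6. Their summed intensity was 18446 for HT-29, against 3204 for MCF10A and 1858 for MDA-MB-436. CDX2, an intestinal homeobox gene, differed little, at 74.8 for HT-29, 53.2 for MCF10A and 51.9 for MDA-MB-436. All 3 measured markers of mammary basal epithelium were above background in MCF10A and 0 in MDA-MB-436. The HT-29 array had 2 of them above background, CDH3 at 62.2 and SERPINB5 at 95.9, against 1238 and 1892 for MCF10A. Of 7 mesenchymal markers, 5 were above background in MCF10A and 7 in MDA-MB-436, with the vimentin gene VIM at 1933 and 2038 and the N-cadherin gene CDH2 at 33.9 and 708. The summed intensities of 5 leukocyte markers were 89.4 to 200, of 6 fibroblast markers 133 to 172 and of 6 endothelial markers 118 to 132. The pan-leukocyte gene PTPRC was at 3.05 to 4.16 on the 3 arrays, while CD14, the only leukocyte marker above background, was at 38.9 in HT-29, compared with 156 in MCF10A and 86.5 in MDA-MB-436.

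Most HOX genes that stood apart between the colon line and the mammary lines were HOXB genes. A gene was counted when it was at least 4-fold apart, a log2 difference of 2, with the brighter array above background. By that rule 4 HOX genes were higher in HT-29 than in MCF10A, HOXB5, HOXB6, HOXB9 and HOXB13, where 4.34% of all genes were. Only HOXC9 was lower, where 3.5% of all genes were. Against MDA-MB-436, 7 HOX genes were higher in HT-29, HOXA2, HOXB2, HOXB3, HOXB5, HOXB6, HOXB8 and HOXB9, beside 4.21% of all genes, and 0 were lower, beside 4.68%. Both comparisons use the same HT-29 array. Several of these counts rest on a dimmer value under background. With such values set to the background, only HOXB9 remained past 4-fold against MCF10A, and HOXA2, HOXB3, HOXB8 and HOXB9 against MDA-MB-436.

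**Figure D2:**
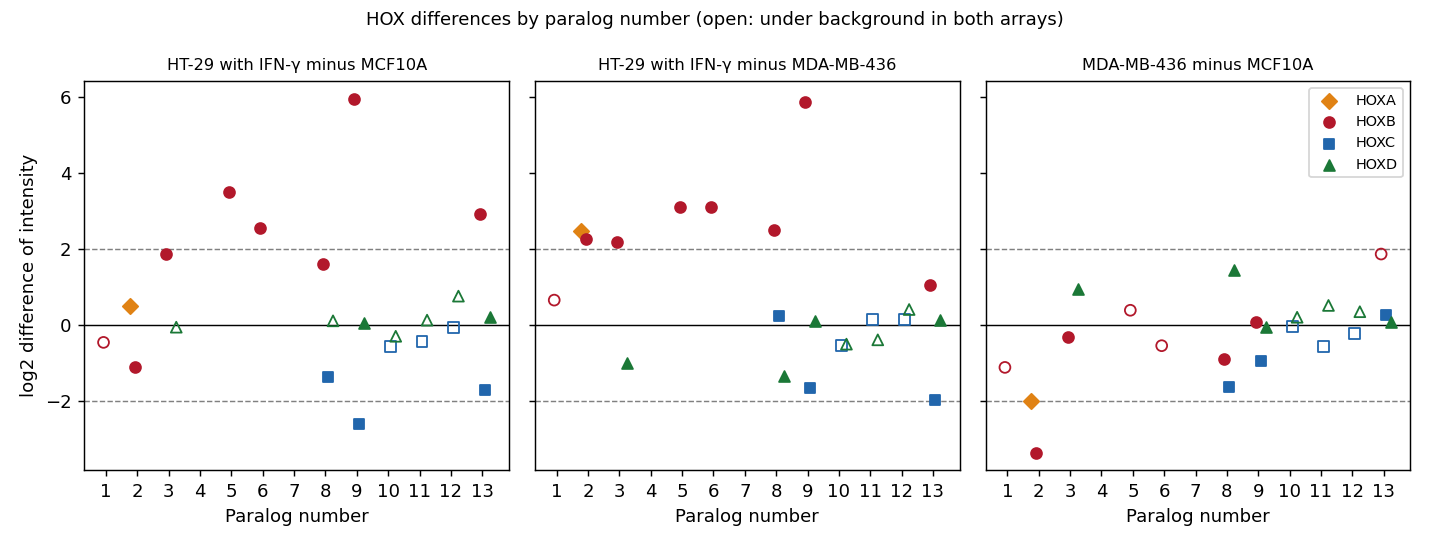
Log2 difference of intensity for each HOX gene by paralog number, for the 3 pairs of lines, with dashed lines at a log2 difference of 2 in either direction. Open symbols are genes under background on both arrays, and HOXB9 is at 5.96 and 5.88 in the comparisons with HT-29 and at 0.08 between the mammary lines.

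HOXB9, a gene of the thoracic region of the embryo, had an intensity of 2283 in HT-29, compared with 36.8 in MCF10A and 38.9 in MDA-MB-436. The colon line alone was high, and the mammary values were close to background and within the range of olfactory receptor genes. The measured ratio was 62.1-fold over MCF10A and 58.7-fold over MDA-MB-436, and the HT-29 value was 22.6 times the highest olfactory receptor value. The summed intensity of the 8 HOXB genes was 2961 in HT-29, against 308 in MCF10A and 179 in MDA-MB-436. Without the brightest gene of each array the sums were 678, 208 and 140, so HT-29 was still the highest.

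HOXB8, which is known for its part in blood cell and microglial development, was at 194 in HT-29 against 63.7 in MCF10A and 34.6 in MDA-MB-436. HT-29 was the only line above the olfactory receptor range, 3.05-fold over MCF10A and 5.62-fold over MDA-MB-436. HOXB3, a gene of the hindbrain, was at 170 in HT-29, compared with 46.6 in MCF10A and 37.4 in MDA-MB-436. Its 4.54-fold difference from MDA-MB-436 passed the 4-fold rule and its 3.65-fold difference from MCF10A fell just short of it.

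HOXB5, which has a role in the enteric nervous system, was at 95.9 in HT-29 against 8.50 in MCF10A and 11.2 in MDA-MB-436. Both mammary values were under background, so it was at least 3.21-fold higher in HT-29. HOXB6 was at 106 in HT-29, compared with 17.8 in MCF10A and 12.3 in MDA-MB-436, a ratio of at least 3.54 over either mammary line. HOXB13, the most posterior gene of the cluster, which is active in prostate and hindgut, was at 44.0 in HT-29 against 5.79 in MCF10A and 21.2 in MDA-MB-436. Its ratio to background was 1.47, so whether transcript was present was not resolved at this signal.

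HOXB2 and HOXB1, at the anterior end of the cluster, had another order of lines. HOXB2, a hindbrain gene, was at 47.2 in HT-29, compared with 100.6 in MCF10A and 9.85 in MDA-MB-436. MCF10A was the highest line, 2.13-fold over HT-29 and at least 3.36-fold over MDA-MB-436. HOXB2 was the only HOX gene counted as lower in MDA-MB-436 than in MCF10A, where 2.01% of all genes were, and 0 HOX genes were counted as higher, where 3.65% of all genes were. HOXB1, which specifies a hindbrain segment, was under background on all 3 arrays, at 20.9, 28.6 and 13.3 in HT-29, MCF10A and MDA-MB-436. Over the 8 HOXB genes the median log2 difference was 2.22 for HT-29 minus MCF10A, 2.38 for HT-29 minus MDA-MB-436 and -0.43 for MDA-MB-436 minus MCF10A. Over all genes the medians were 0.11, 0.08 and 0.02.

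Genes on either side of HOXB on chromosome 17 were read in the same way, from a fixed list of neighbours. Of 8 measured neighbours, 1 was at least 4-fold higher in HT-29 than in MCF10A and 2 than in MDA-MB-436, with 0 lower, where 4.34% and 4.21% of all genes were higher, and their median log2 differences were 0.95 and 1.25. SKAP1, which encodes an adaptor protein of T cells and lies next to HOXB1, was at 104 in HT-29 against 5.39 in MCF10A and 4.59 in MDA-MB-436, a ratio of at least 3.47, so it would not pass 4-fold with values under background set to the background. CALCOCO2, which encodes an autophagy receptor and lies beyond HOXB13, was at 1399 in HT-29, compared with 356 in MCF10A and 276 in MDA-MB-436, 3.93-fold and 5.08-fold higher. CBX1 and ATP5MC1 were lower in HT-29 than in either mammary line, at 213 against 367 and 297, and at 2124 against 2631 and 2476. NFE2L1 was at 1315, 671 and 492 in HT-29, MCF10A and MDA-MB-436, SNX11 at 246, 129 and 83.0 and UBE2Z at 2225, 1302 and 1046. TTLL6 was under background on all 3 arrays. NFE2L1, SNX11, SKAP1, CALCOCO2 and UBE2Z, on both sides of HOXB, were thus above background and highest in HT-29. The share of all genes highest in HT-29 was not computed, and the part of the neighbours in the HOXB difference was not tested. PRAC1, a small gene between HOXB9 and HOXB13, was at 2.26 to 2.77 on the 3 arrays.

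**Figure D3:**
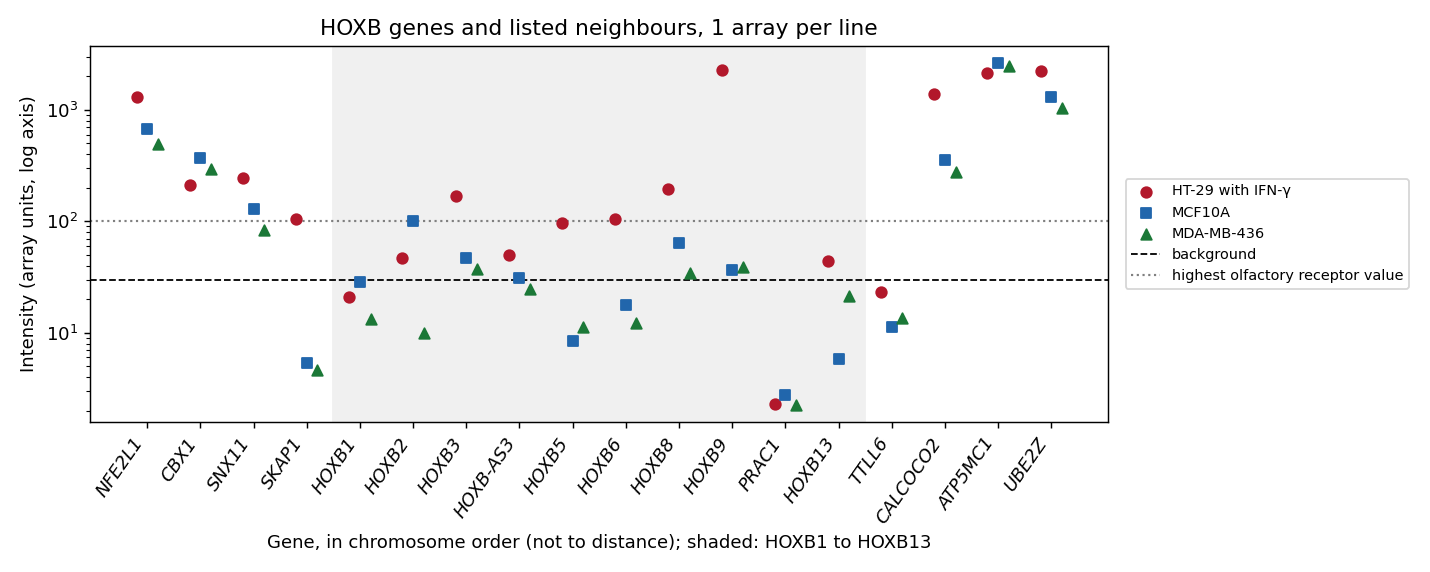
Intensity on a log axis, in array units, of the HOXB genes (shaded, with HOXB-AS3 and PRAC1 between them) and their listed neighbours in chromosome order, not to distance, with 1 point per line. HT-29 is the highest line at most HOXB genes and most neighbours, among them SKAP1 (104) and CALCOCO2 (1399), but not at CBX1 or ATP5MC1.

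HOXA2, which sets the identity of the second pharyngeal arch, was the only HOXA gene with a cluster of its own. Its intensity was 325 in HT-29 against 231 in MCF10A and 58.5 in MDA-MB-436. MDA-MB-436 was the low line, 5.56-fold under HT-29 and 3.95-fold under MCF10A, and the other 2 lines were 1.41-fold apart. The difference between the mammary lines, a log2 difference of -1.98, lay just outside the 4-fold rule and passed it after quantile normalization at -2.04 and median centring at -2.07. On chromosome 7, the neighbour SKAP2 was at 524, 485 and 393 in HT-29, MCF10A and MDA-MB-436 and HIBADH at 743, 848 and 466, both lowest in MDA-MB-436, by less than HOXA2. TAX1BP1 at 864, 568 and 656, and SNX10 at 15.1, 124 and 165, had the opposite order of mammary lines, with MCF10A the lower, and JAZF1, at 40.7, 323 and 162, was lowest in HT-29. The neighbour EVX1 was under background on all 3 arrays.

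Promoter sequences from RefSeq (GRCh38.p14), of which 8 of the 22 HOX genes had an entry, are shown for 3 genes: HOXA2, lowest in MDA-MB-436, and HOXD3 and HOXD8. HOXD3 and HOXD8 had their highest value in MDA-MB-436, but with differences within the spread of olfactory receptor genes, as given below. Each run holds the 250 bases before the start, 5′ to 3′ on the gene's strand, at chr7:27102684-27102933 (minus), chr2:176157057-176157306 (plus) and chr2:176129455-176129704 (plus). Capitals mark matches on either strand to the motifs spelled out after the runs.
HOXA2: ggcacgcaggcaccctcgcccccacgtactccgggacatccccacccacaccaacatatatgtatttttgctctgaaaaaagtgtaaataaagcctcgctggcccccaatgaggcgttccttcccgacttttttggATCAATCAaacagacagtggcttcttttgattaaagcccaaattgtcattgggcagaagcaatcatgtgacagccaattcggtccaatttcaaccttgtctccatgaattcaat
HOXD3: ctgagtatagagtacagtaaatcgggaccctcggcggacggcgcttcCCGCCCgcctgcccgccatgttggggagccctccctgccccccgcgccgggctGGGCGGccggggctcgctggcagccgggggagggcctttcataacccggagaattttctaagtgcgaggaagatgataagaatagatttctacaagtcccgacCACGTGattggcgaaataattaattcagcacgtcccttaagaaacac
HOXD8: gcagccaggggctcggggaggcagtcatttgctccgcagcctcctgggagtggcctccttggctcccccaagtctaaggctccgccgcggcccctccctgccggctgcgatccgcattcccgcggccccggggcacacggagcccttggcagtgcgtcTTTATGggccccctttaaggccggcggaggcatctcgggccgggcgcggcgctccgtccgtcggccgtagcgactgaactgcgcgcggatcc
The HOXA2 run holds a match to the PBX-HOX motif TGATTNAT on the reverse strand, at positions -114 to -107 from the start, and 2.59% of 27305 promoters of the same length hold that motif. The HOXD3 run holds the GC box GGGCGG, found in 42.3% of promoters. It also holds the E-box CACGTG, found in 6.49%. The HOXD8 run holds a match to the CDX motif TTTATG at -92 to -87, found in 10.0%. No marked matches overlapped in these 3 runs. The interferon-gamma response motif TTCNNNGAA, known as GAS and found in 6.78% of promoters, was in 0 of the 8 HOX windows, which is near that share. These windows belong to HOXA2, HOXB1 and HOXD genes, so no HOXC gene and no HOXB gene other than HOXB1 was searched. A match is a description of letters and not a bound site.

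HOXC8, HOXC9 and HOXC13 were brighter in MCF10A than in HT-29. Against MDA-MB-436, HOXC9 and HOXC13 were lower in HT-29, and HOXC8 was 1.18-fold apart. All 6 measured HOXC genes were lower in HT-29 than in MCF10A by measured intensity, with a median log2 difference of -0.97, but 3 of them were under background on both arrays. Against MDA-MB-436, 3 were higher and 3 lower in HT-29, with a median of -0.19. Here too HOXC10, HOXC11 and HOXC12 were under background on both arrays, so their direction was not resolved. HOXC9, a thoracic gene, was at 18.2 in HT-29, compared with 110 in MCF10A and 57.2 in MDA-MB-436. HT-29 was under background, so HOXC9 exceeded it at least 3.66-fold in MCF10A and at least 1.91-fold in MDA-MB-436, with the mammary lines 1.91-fold apart. HOXC8, its neighbour, was at 63.3 in HT-29 against 164 in MCF10A and 53.5 in MDA-MB-436. Here MCF10A alone was above the olfactory receptor range, 2.59-fold over HT-29 and 3.07-fold over MDA-MB-436. HOXC13, known for its role in hair and nail, was at 27.4 in HT-29, compared with 89.4 in MCF10A and 107 in MDA-MB-436. It exceeded the HT-29 value at least 2.99-fold in MCF10A and at least 3.57-fold in MDA-MB-436, and the mammary lines differed 1.19-fold. HOXC10, HOXC11 and HOXC12, which lie between HOXC9 and HOXC13, were under background in all lines, at 7.88 to 18.0. In the mammary lines the signal of these 6 genes thus lay at HOXC8 and HOXC9 and again at HOXC13, with the 3 genes between them under background. In HT-29 only HOXC8 was above background. The cluster shared by HOXC6, HOXC4 and HOXC5, given below, was above background on all 3 arrays and had its highest value in HT-29, 1.25-fold over MCF10A. The 6 neighbours of HOXC on chromosome 12 had median log2 differences of -0.03, 0.17 and -0.09 in HT-29 minus MCF10A, HT-29 minus MDA-MB-436 and MDA-MB-436 minus MCF10A. None of these neighbours was past 4-fold, beside 2.01% to 4.68% of all genes in either direction.

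Among genes with a cluster of their own, the largest HOXD difference was smaller than the largest HOXB or HOXC difference in each comparison. This leaves out the cluster shared by HOXD4, MIR10B and HOXD3, which is given below. For MDA-MB-436 minus MCF10A its log2 difference was 1.81, larger in size than the -1.62 of HOXC8, the largest among the HOXC genes. None of the 7 HOXD genes passed 4-fold, beside 2.01% to 4.68% of all genes in either direction, so 0 of 7 is near that share. HOXD8 was at 23.8 in HT-29 against 22.0 in MCF10A and 60.3 in MDA-MB-436, which exceeded each of the others at least 2.01-fold. HOXD3 was at 23.2, 24.1 and 46.2 in the same order of lines, and MDA-MB-436 again exceeded the others, at least 1.55-fold. Both values in MDA-MB-436 were within the olfactory receptor range. HOXD9 was at 56.5, 54.2 and 52.3, and HOXD13, a gene of the digits and genital tubercle, at 50.5, 43.3 and 46.2, so neither was more than 1.17-fold apart between any lines. HOXD10, HOXD11 and HOXD12 were under background in all lines, with HOXD10 in MDA-MB-436, at 29.2, just under the limit. HOXD was the only cluster whose summed intensity was highest in MDA-MB-436, at 270.5 against 207 in HT-29 and 195 in MCF10A. On chromosome 2 the 5 measured neighbours of HOXD had a median log2 difference of 0.49 for MDA-MB-436 minus MCF10A, and of -0.63 for HT-29 minus MDA-MB-436. None of them passed 4-fold, beside 2.01% to 4.68% of all genes in either direction, and their part in the HOXD values was not tested.

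Paralogs of the same group often had different highest lines. In group 8, HOXB8 was highest in HT-29, HOXC8 in MCF10A and HOXD8 in MDA-MB-436, while HOXB8 and HOXC8 were both lowest in MDA-MB-436. HOXA2 and HOXB2 of group 2 were likewise both lowest in MDA-MB-436, with their highest values in HT-29 and MCF10A. Group 9 had HOXB9 highest in HT-29 and HOXC9 in MCF10A, while HOXD9 was nearly level. In group 13, HOXB13 was above background only in HT-29 and HOXC13 only in the mammary lines, and HOXD13 was nearly level. Of the 8 groups with more than 1 measured member, each had its members' highest values in at least 2 lines, although 3 of these groups, 10, 11 and 12, held only values under background. How often sets of other genes would be split between lines in this way was not computed, so the count is not read as a trait of paralogs. By position, 3 of 5 genes of groups 1 to 3, 4 of 5 of groups 4 to 8 and 4 of 12 of groups 9 to 13 were above background in HT-29, against 3, 2 and 5 in MCF10A and 3, 3 and 5 in MDA-MB-436.

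**Figure D4:**
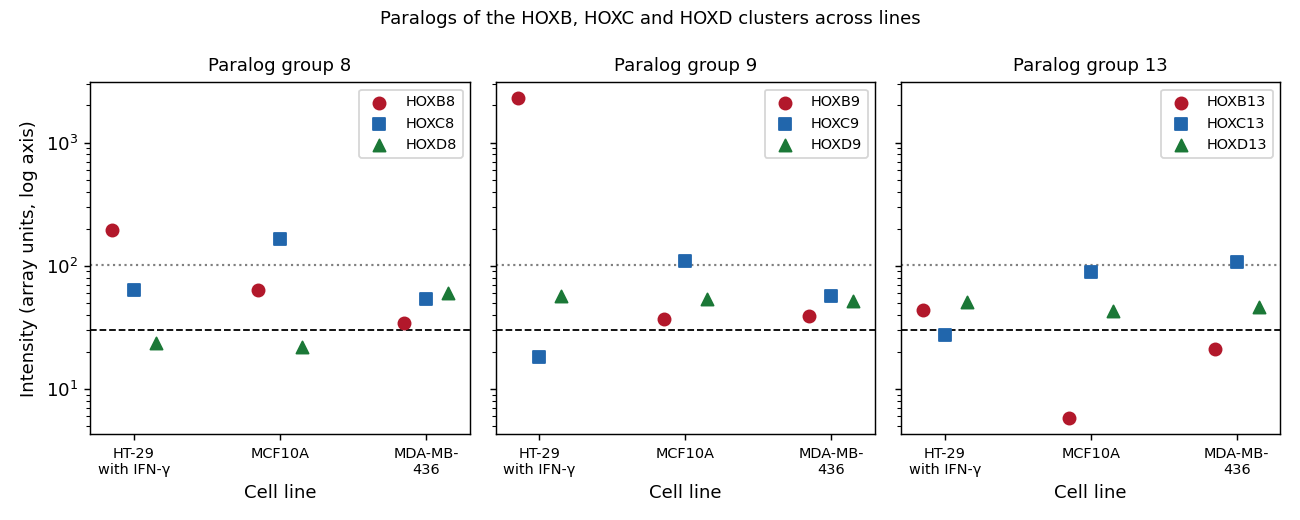
Intensity on a log axis, in array units, of the HOXB, HOXC and HOXD members of paralog groups 8, 9 and 13 in the 3 lines, 1 array each, with background (29.9, dashed) and the highest olfactory receptor value (100.8, dotted). HOXB8, HOXB9 and HOXB13 are highest in HT-29 at 194, 2283 and 44.0, and HOXC8, HOXC9 and HOXC13 are highest in a mammary line at 164, 110 and 107.

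Clusters that list several genes gave further signal from HOX loci, 4 of them together with a microRNA gene. MicroRNAs of the miR-10 and miR-196 families repress target messenger RNAs, among them HOX messages, through bases 2 to 8, the seed. The RefSeq mature sequences of miR-10a-5p and miR-196a-5p, with the seed in capitals, are given because the array signal of these clusters cannot be split between the HOX gene and the microRNA gene.
hsa-miR-10a-5p: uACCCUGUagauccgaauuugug
hsa-miR-196a-5p: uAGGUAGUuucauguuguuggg
In GRCh38.p14, miR-10a-5p lies at chr17:48579904-48579926 (minus), and miR-196a-5p comes with the same letters from the MIR196A1 gene in HOXB, at chr17:48632532-48632553 (minus), and the MIR196A2 gene in HOXC, at chr12:53991762-53991783 (plus). The cluster of HOXB7 and MIR196A1 was at 102 in HT-29, compared with 10.4 in MCF10A and 24.9 in MDA-MB-436, with HT-29 the highest by at least 3.40-fold, and HT-29 was also the highest line for its neighbours HOXB6 and HOXB8. The cluster of HOXB4 and MIR10A was at 56.2, 36.9 and 30.8 in the same order, a smaller difference. The cluster of HOXD4, MIR10B and HOXD3 was at 54.1, 40.6 and 142, so that MDA-MB-436 exceeded MCF10A 3.50-fold and HT-29 2.63-fold. It was the only HOXD feature above the olfactory receptor range, and it had the same highest line as HOXD3 and HOXD8. The cluster of HOXC6, HOXC4, HOXC5 and MIR196A2 was at 72.8, 58.5 and 60.0 and that of HOXD1 with the antisense gene HAGLR at 68.8, 68.6 and 64.3, so neither was more than 1.25-fold apart between lines.

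Partner proteins of the PBX and MEIS families were measured for 7 of 10 listed genes. None was past 4-fold in any comparison, beside 2.01% to 4.68% of all genes in either direction, so 0 of 7 is near that share. MEIS1 was at 33.8 in HT-29 against 64.3 in MCF10A and 111 in MDA-MB-436, a 3.29-fold range. MEIS2 had another order, at 168, 70.4 and 93.1, and was highest in HT-29. PBX4 was at 97.0, 68.8 and 210, also highest in MDA-MB-436, 3.06-fold over MCF10A, and PKNOX2 was above background only in MDA-MB-436, at 36.8. The list's median log2 differences were 0.20, -0.63 and 0.40 for HT-29 minus MCF10A, HT-29 minus MDA-MB-436 and MDA-MB-436 minus MCF10A.

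Polycomb proteins keep HOX genes silent. All 16 measured of 21 listed genes were above background on every array, where 65.0% to 68.8% of all genes were. None was past 4-fold, beside 2.01% to 4.68% of all genes in either direction, and the list had medians of 0.04, -0.14 and -0.14 in the same order of comparisons. SUZ12, a core subunit, was at 1575 in HT-29, compared with 705 in MCF10A and 556 in MDA-MB-436. RING1 was at 236, 101 and 112, so both genes were highest in HT-29. PHF19 was at 157, 249 and 418 and CBX6 at 108, 83.1 and 223, both highest in MDA-MB-436. MLL proteins and their partners keep HOX genes active. Of 11 measured of 16 listed, 1 was past 4-fold and higher in HT-29 in both comparisons, where 4.34% and 4.21% of all genes were, and the medians were 0.72, 0.63 and -0.45. That gene was MLLT3, a subunit of the elongation machinery that acts with MLL, at 731 in HT-29 against 21.5 in MCF10A and 44.5 in MDA-MB-436. It was at least 24.4-fold over MCF10A and 16.4-fold over MDA-MB-436. KMT2A, which encodes MLL itself, was at 652, 337 and 246, KMT2C at 597, 306 and 196 and AFF1 at 860, 385 and 222, so each was highest in HT-29 and lowest in MDA-MB-436, by up to 3.87-fold for AFF1. For CTCF and cohesin, which shape chromatin loops at HOX clusters, 0 of 7 measured genes were past 4-fold, beside 2.01% to 4.68% of all genes. CTCF was at 533, 375 and 317 in HT-29, MCF10A and MDA-MB-436, WAPL at 363, 221 and 149 and NIPBL at 507, 271 and 347, each highest in HT-29. SMC1A, at 499, 446 and 825, was highest in MDA-MB-436.

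Retinoic acid activates HOX genes in the embryo from the low-numbered end, and genes of its pathway differed between lines in either direction. Of 17 listed genes 16 were measured. By the 4-fold rule, 2 were higher and 0 lower in HT-29 than in MCF10A, beside 4.34% and 3.5% of all genes. Against MDA-MB-436, 3 were higher and 4 lower in HT-29, beside 4.21% and 4.68%. In MDA-MB-436 against MCF10A, 4 were higher and 0 lower, beside 3.65% and 2.01%. The list's medians were 0.61, 0.32 and 0.09. The enzymes that make retinoic acid were split: ALDH1A1 was at 807 in HT-29, compared with 6.81 in MCF10A and 13.6 in MDA-MB-436, a ratio of at least 27.0. ALDH1A3 was at 96.4, 229 and 1192, so that MDA-MB-436 exceeded HT-29 12.4-fold and MCF10A 5.20-fold. The receptor gene RARB, itself a target of retinoic acid, was at 9.35, 6.19 and 142, with MDA-MB-436 highest by at least 4.74-fold, and RXRG was at 12.6, 5.43 and 83.2, with the same line highest by at least 2.78-fold. The other counted genes, named after their values were seen, were CRABP2 and RARG on the HT-29 side and STRA6 on the MDA-MB-436 side. CRABP2, a retinoic acid carrier, was at 283, 68.1 and 52.4, the receptor gene RARG at 646, 192 and 66.1 and the retinol receptor gene STRA6 at 60.6, 29.4 and 308.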

How the data were processed

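Per the labels' protocols, total RNA was biotin-labelled for exon arrays. The deposited table holds linear intensity values of 18708 transcript clusters per array. How the authors summarised probes, corrected background or normalized arrays is not given in the sources used here, and hg19 is the build named in the submitters' processing notes. The members and lists were chosen with earlier results of these data known. Names came from the platform annotation, and symbols were updated by gene identifier to RefSeq (GRCh38.p14), which also gave gene order and sequences: 14733 clusters had 1 symbol, 14705 of them matched by identifier, 2875 had several and 1100 were unnamed here. The cluster with the highest mean was kept per gene, which left 14410 genes. Values were log2 transformed as deposited, and differences were taken between arrays. Where the dimmer value lay under background, the fold was taken over 29.9 and is written "at least", and none is given where both values were under it. All HOX genes above background on at least 1 array were named, with up to 4 members of each other list by their range over the arrays. Over olfactory receptor genes, log2 differences between arrays had SDs of 0.76 to 0.80. No test was made with 1 array per group, and precision is limited by the number of arrays. The counting step was tested on simulated data. The alternatives were quantile normalization, median centring, other backgrounds, a background floor, other folds, the median over a gene's clusters and the use of shared clusters. Scripts ran under Python 3.11.15 with pandas 2.3.3, numpy 2.4.6 and, for figures, matplotlib 3.10.9.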

Additional observations from a re-analysis of the deposited data

How the results depend on the processing

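HOX genes counted above background numbered 7, 6 and 1 in HT-29, MCF10A and MDA-MB-436 with the 99th percentile of olfactory receptor genes, and 5, 3 and 1 with their highest value, in place of 11, 10 and 11. For HT-29 minus MCF10A, the 4 higher genes became 2 with the highest olfactory receptor value as background, 1 with values under background set to it and 2 at 8-fold, and the 1 lower gene became 0 with that floor, 4 at 2-fold and 0 at 8-fold. For HT-29 minus MDA-MB-436, the 7 higher genes became 4 with the floor and 3 at 8-fold, and the 0 lower genes became 3 at 2-fold. For MDA-MB-436 minus MCF10A, the 1 lower gene became 2 after quantile normalization and after median centring, where HOXA2 passed the rule, 0 with the highest olfactory receptor value, 0 with the floor and 3 at 2-fold, and the 0 higher genes became 1 at 2-fold. The summed HOXC intensity of HT-29 moved from 141 to 213 with the floor. Quantile normalization shifted the median of all genes in HT-29 minus MCF10A by -0.12 on the log2 scale. The HOX median of that comparison went from 0.09 to -0.04. Differences whose sign turned were small: HOXD8, HOXD9 and HOXD11 in HT-29 minus MCF10A and HOXB9, HOXD10 and HOXD13 in MDA-MB-436 minus MCF10A after quantile normalization, and HOXB9 in the latter after median centring. No paired analysis was possible because each group had 1 array. Signal over background also limits these results: 14 of the 22 genes never exceeded the highest olfactory receptor value. Of all 14410 named genes, 8097 exceeded it on at least 1 array.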

Other observations

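Homeobox genes related to HOX were read in the same way. Of 19 measured ParaHox and HOX-linked homeobox genes, 14 were above background on at least 1 array. None was past 4-fold in any comparison, beside 2.01% to 4.68% of all genes in either direction, so 0 of 19 is near that share. The median log2 differences were 0.10 for HT-29 minus MCF10A, -0.16 for HT-29 minus MDA-MB-436 and 0.36 for MDA-MB-436 minus MCF10A. MNX1, a gene of motor neurons and pancreas, was at 189 in HT-29 against 70.5 in MCF10A and 101.2 in MDA-MB-436. DLX2, DLX5 and EN2 were highest in MDA-MB-436, at 76.3, 41.1 and 72.6, against 37.1, 13.6 and 30.3 in HT-29 and 59.1, 14.7 and 33.6 in MCF10A. The DLX2, DLX5 and EN2 values were within the olfactory receptor range. GBX2 was above it on all 3 arrays, at 253, 225 and 277.

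Near HOXA on chromosome 7, SNX10 and JAZF1 were lower in HT-29. SNX10, which encodes a sorting nexin, was at 15.1 in HT-29, compared with 124 in MCF10A and 165 in MDA-MB-436, a difference of at least 4.16-fold from MCF10A and 5.51-fold from MDA-MB-436. JAZF1 was at 40.7, 323 and 162, 7.94-fold lower in HT-29 than in MCF10A, whereas HOXA2, between them on the chromosome, was highest in HT-29.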
